A study of Mus musculus with 4 samples.

Results

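The immediate-early and ERK feedback genes were followed across 4 cultures of CT26, a mouse colon carcinoma line. The set has 39 genes chosen by name, with earlier results of these data known. For each gene the rule kept the probe set that carries its symbol alone and has the highest mean over the 4 arrays. It found 38 of the 39 among 22180 named genes. Fosl1 was not measured by this rule, since its probe set carries 2 gene symbols, and no value is given for it. Of the 38, 37 counted as expressed, meaning that at least 1 array gave a value of 5.98 or more (the 40th percentile over all genes), a limit passed by 14272 genes in all. The exception was Nr4a3, which stayed between 5.42 and 5.65 on the 4 arrays. The member nearest to the limit from above was Fos, with a highest value of 6.47.

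All 4 cultures were CT26 cells grown in RPMI-1640 with fetal bovine serum, and each group was 1 culture, hybridized to 1 Mouse Gene 2.0 ST array from Affymetrix. DMSO, the solvent, was given to 1 culture for 24 h and 5 µM Senexin B to another for the same time. This compound blocks the Mediator kinases CDK8 and CDK19, which act between transcription factors and the polymerase. The remaining cultures were a line with pLKO.1, an empty plasmid backbone for hairpin expression, and the line named CT26-shCDK8. The labels give no solvent, dose or time for these lines, and do not say whether they are clones or which hairpin sequence was used. With 1 array per group nothing could be tested, so each difference below is between 2 arrays on the log2 scale, has no replicate check and no p-value, and was called where it reached 1.5-fold (0.585).

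Immediate-early genes are switched on within minutes of a growth factor or stress signal, without new protein synthesis. In the best known route the kinase ERK phosphorylates ternary complex factors such as ELK1, which sit with serum response factor (SRF) on the CArG boxes of promoters such as those of Fos and Egr1. Feedback closes the loop. Dual-specificity phosphatases (Dusp genes) dephosphorylate MAP kinases, and Sprouty and Spred proteins dampen signalling upstream of ERK. ETS factors of the PEA3 group are induced as targets. In human cells CDK8 has been described as a coactivator of serum-induced immediate-early transcription.

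Promoter windows are shown for members that were at least 1.5-fold apart, or just short of it, and whose window held a motif searched, because letters known from this pathway can be seen in them. The windows of Spry2, Klf6 and Ier3 held none of the motifs and are not shown, and no window of Egr1 or Ier2 was searched. Each line gives the 250 bases before an annotated start (RefSeq, GRCm38.p6), 5′ to 3′ on the gene's strand, with matches in capitals. In Dusp5, Egr2 and Srf the capitals mark CArG boxes, and in Srf also the EGR motif GCGNGGGCG and the ETS motif CCGGAAG. In Dusp1 they mark the cAMP response element TGACGTCA, and in Klf4 the EGR motif, read on the other strand.
Dusp5, chr19:53528895-53529144, plus strand: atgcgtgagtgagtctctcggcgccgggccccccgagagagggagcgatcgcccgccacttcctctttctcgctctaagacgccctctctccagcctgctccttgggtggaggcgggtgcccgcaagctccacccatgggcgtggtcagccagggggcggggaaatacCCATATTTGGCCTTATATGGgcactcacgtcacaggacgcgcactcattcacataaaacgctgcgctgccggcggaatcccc
Egr2, chr10:67537619-67537868, plus strand: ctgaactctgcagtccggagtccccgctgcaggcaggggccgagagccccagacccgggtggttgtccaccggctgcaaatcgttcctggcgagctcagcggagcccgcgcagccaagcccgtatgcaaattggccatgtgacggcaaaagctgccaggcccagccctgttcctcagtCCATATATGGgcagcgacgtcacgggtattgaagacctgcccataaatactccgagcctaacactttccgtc
Srf, chr17:46556163-46556412, minus strand: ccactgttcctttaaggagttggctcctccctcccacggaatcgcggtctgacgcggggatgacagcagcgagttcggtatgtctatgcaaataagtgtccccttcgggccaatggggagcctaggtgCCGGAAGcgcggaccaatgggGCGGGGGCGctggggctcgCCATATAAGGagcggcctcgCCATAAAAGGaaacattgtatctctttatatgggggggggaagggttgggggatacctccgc
Dusp1, chr17:26508473-26508722, minus strand: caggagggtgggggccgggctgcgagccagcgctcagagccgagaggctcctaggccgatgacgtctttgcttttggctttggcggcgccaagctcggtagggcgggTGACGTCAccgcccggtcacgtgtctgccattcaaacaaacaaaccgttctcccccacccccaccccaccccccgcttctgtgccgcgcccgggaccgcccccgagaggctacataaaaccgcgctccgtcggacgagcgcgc
Klf4, chr4:55532476-55532725, minus strand: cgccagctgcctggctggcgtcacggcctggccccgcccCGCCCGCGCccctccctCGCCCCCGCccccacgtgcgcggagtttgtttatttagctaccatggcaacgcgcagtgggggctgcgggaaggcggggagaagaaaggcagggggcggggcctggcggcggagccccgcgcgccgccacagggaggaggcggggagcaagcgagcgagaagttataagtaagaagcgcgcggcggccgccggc
Dusp5 holds 2 adjoining CArG boxes, from 82 to 73 and from 72 to 63 bases before the start. The Egr2 window is 1 of 5 annotated starts, 3 of which share the box shown. Both strands of 32851 such windows were searched, and 30 members had at least 1 window. A CArG box was in 1.47% of all windows and in 4 members, Dusp5, Egr2, Srf and Zfp36. The cAMP response element was in 1.55% of windows and in 2 members, Dusp1 and Maff. The EGR motif was in 4.70% of windows and in 9 members, and the ETS motif in 6.91% and in 2, Srf and Zfp36. The AP-1 motif TGANTCA was in 6.75% of windows and in none of the members' windows. No motif searched overlapped another in the sequences shown. Members with several annotated starts had more windows to match, and a match is a description of letters, not a bound site.

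The hairpin's target was lower where its label says: Cdk8 stood at 10.79 in pLKO.1 and 9.07 in shCDK8, a difference of -1.72, and at 10.69 in DMSO and 10.58 in Senexin B. The array medians over 41345 probe sets lay between 5.99 and 6.04. Of the epithelial markers 6 of 9 reached the expression limit on at least 1 array, Epcam, Krt19 and Vil1 did not, and all 8 fibroblast or mesenchymal markers did. The mean of these 8 was 9.73 in DMSO, 10.51 in Senexin B, 9.83 in pLKO.1 and 9.44 in shCDK8, so it was highest on the Senexin B array. The markers did not move alike. Dcn (2.29), Pdgfrb (1.49) and Pdgfra (1.24) differed most from DMSO there, and Col3a1 was at 0.57. Col1a1, Col1a2 and Thy1 were between 0.21 and 0.23, and Vim was at -0.0088. In shCDK8 minus pLKO.1, Col3a1 (-1.27), Pdgfrb (-1.25) and Dcn (-0.82) were lowest, then Col1a2 (-0.34) and Col1a1 (-0.16). Pdgfra (0.39), Thy1 (0.30) and Vim (0.06) were above 0. Of the expressed epithelial markers Krt20 was at -1.44 there and the others above 0, the highest Cdx2 at 0.41. The part of these marker differences in the differences of the members was not tested. Of 6 measured leukocyte markers Cd14 alone reached the limit, and Ptprc was between 4.27 and 4.66. Of 4 endothelial markers 3 reached it, Pecam1, Cdh5 and Kdr, with a highest value of 6.16 (Kdr in Senexin B).

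**Figure D1:**
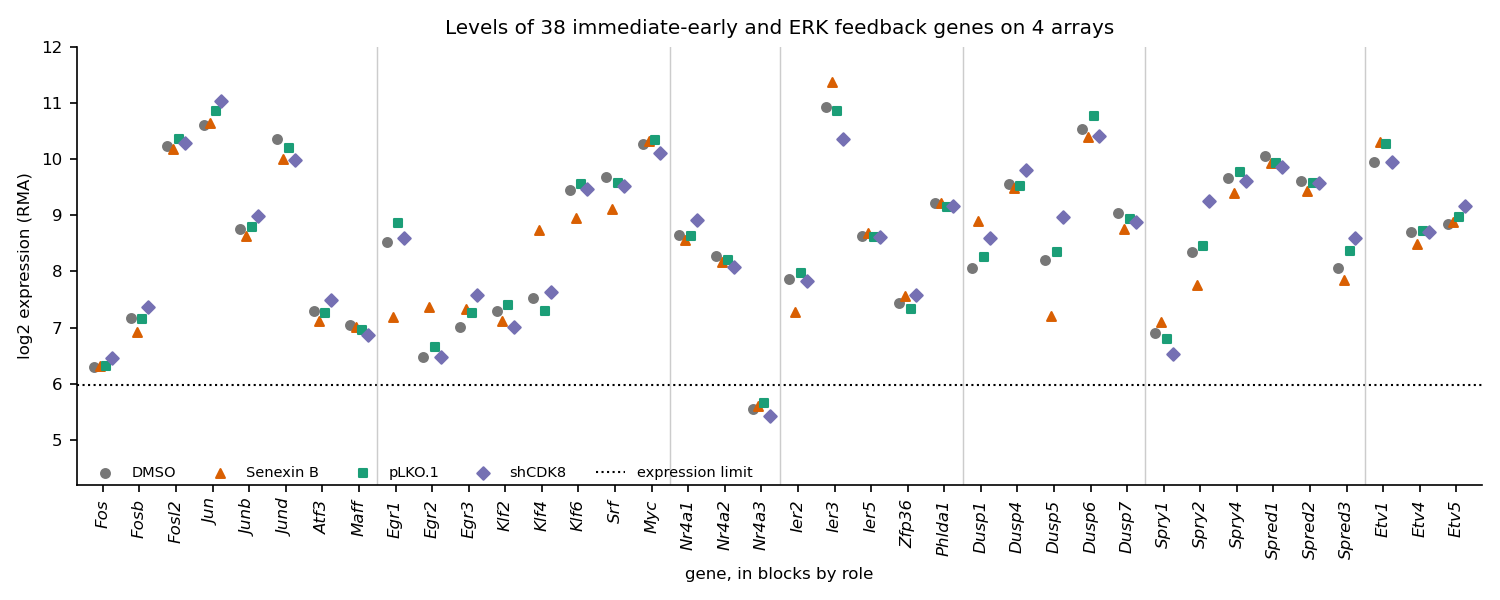
Log2 expression (y axis, RMA values) of the 38 measured members (x axis, in blocks by role) on the 4 arrays, 1 symbol per array, with the expression limit of 5.98 as a dotted line. Most members have their 4 symbols close together, while in Egr1 and Dusp5 the Senexin B symbol, at 7.18 and 7.21, lies apart below the others.

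Set against DMSO, the Senexin B array differed in a few members and in both directions. Klf4, Egr2 and Dusp1 were higher, and Egr1, Dusp5, Ier2 and Spry2 were lower. These were 3 and 4 of the 37 expressed members (8.11% and 10.8%), against a background over all expressed genes of 2.35% called higher and 1.65% called lower. The members were chosen with earlier results known. Their shares, here and below, are thus no independent evidence that members are called more often than other genes. The median member was at -0.10, beside -0.028 for all expressed genes. Below 0 lay 23 of 37 (62.2%), beside 55.1% of all expressed genes. Among genes reaching the 60th percentile the medians of members and of all genes were -0.12 and -0.070. With a lowess trend removed they were -0.042 and -0.0011. Ier2 at -0.59 and Spry2 at -0.59 were just inside the threshold, and Srf at -0.57 and Klf6 at -0.51 just outside it. When the arrays were rescaled, by a repeated quantile normalization or by removing a lowess trend, Ier2 and Spry2 were just outside it and 2 members remained on the lower side, Egr1 and Dusp5.

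The zinc finger factors held the largest differences. Egr1, an early growth response factor and SRF target, stood at 8.53 in DMSO, 7.18 in Senexin B, 8.87 in pLKO.1 and 8.60 in shCDK8. It was 2.55-fold lower with Senexin B (-1.35), rank 16 from the lowest of 14272 expressed genes, and its Senexin B value lay more than 1 log2 unit below the other 3. The controls themselves were 0.34 apart for Egr1, the widest such gap among the members, and against pLKO.1 the Senexin B difference was -1.69. Its paralogue Egr2, which binds the same motif, went the other way. Egr2 stood at 6.47 in DMSO, 7.37 in Senexin B, 6.65 in pLKO.1 and 6.48 in shCDK8, a difference of 0.90 for Senexin B. Egr3 was at 7.01 in DMSO, 7.33 in Senexin B, 7.26 in pLKO.1 and 7.58 in shCDK8, so DMSO was its low array, and it was 0.31 higher in each comparison.

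Among the Krüppel-like factors Klf4, which acts in epithelial differentiation and pluripotency, was at 7.53 in DMSO, 8.74 in Senexin B, 7.30 in pLKO.1 and 7.63 in shCDK8. With Senexin B it was 2.32-fold higher (1.21), rank 65 from the highest, and 1.45 higher than in pLKO.1. At the 2-fold threshold Klf4 and Egr1 were the members called, 1 in each direction, beside 0.687% of all expressed genes higher and 0.252% lower. Klf6 stood at 9.45 in DMSO, 8.94 in Senexin B, 9.56 in pLKO.1 and 9.47 in shCDK8, lowest with Senexin B by 0.51. Klf2, an endothelial and lymphocyte factor, was at -0.18 with Senexin B and -0.40 in shCDK8. Srf, which encodes serum response factor itself and carries 2 CArG boxes in the window above, was at 9.68 in DMSO, 9.11 in Senexin B, 9.58 in pLKO.1 and 9.53 in shCDK8. Its Senexin B value was the low one, with the other 3 within 0.15 of each other. Myc, the growth-promoting transcription factor, lay between 10.12 and 10.34 on the 4 arrays, with Senexin B and the controls within 0.1 of each other and shCDK8 the lowest.

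AP-1, the dimer of Fos and Jun proteins, had no member at least 1.5-fold apart in either comparison. Over all expressed genes 2.35% were called higher and 1.65% lower with Senexin B, and 1.67% and 1.85% in shCDK8. None of 8 measured is thus near the background. Fos was low on every array, at 6.30 in DMSO, 6.32 in Senexin B, 6.32 in pLKO.1 and 6.47 in shCDK8. The 8 measured factors of this role were Fos, Fosb, Fosl2, Jun, Junb, Jund, Atf3 and Maff. With Senexin B they ranged from -0.34 (Jund) to 0.030 (Jun), with a median of -0.086 and 2 above 0. In shCDK8 they ranged from -0.23 (Jund) to 0.22 (Atf3), with a median of 0.16 and 5 above 0. Jund was thus the lowest of the 8 in both comparisons, and its other probe set gave -0.25 and -0.52. Jun was at 10.62 in DMSO, 10.65 in Senexin B, 10.87 in pLKO.1 and 11.04 in shCDK8, so the vector and hairpin arrays were both higher than the other pair.

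The orphan nuclear receptors and most other immediate-early genes differed little. Nr4a1, an orphan receptor induced by growth factors, was at 8.64 in DMSO, 8.56 in Senexin B, 8.63 in pLKO.1 and 8.92 in shCDK8. Nr4a2 differed by -0.10 with Senexin B and -0.12 in shCDK8. Ier2 stood at 7.87 in DMSO, 7.28 in Senexin B, 7.97 in pLKO.1 and 7.83 in shCDK8, lowest with Senexin B. Ier3, a regulator of apoptosis, was at 10.94 in DMSO, 11.38 in Senexin B, 10.85 in pLKO.1 and 10.35 in shCDK8. The Senexin B array was thus the highest and the shCDK8 array the lowest for Ier3, with differences of 0.44 and -0.50, both under 1.5-fold. Ier5, Phlda1, a pleckstrin homology protein gene that follows ERK activity, and Zfp36, whose product tristetraprolin destabilizes AU-rich mRNAs, lay within 0.25 of 0 in both comparisons.

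The MAP kinase phosphatases split. Dusp1, a nuclear phosphatase for JNK, p38 and ERK, stood at 8.06 in DMSO, 8.90 in Senexin B, 8.26 in pLKO.1 and 8.59 in shCDK8. It was 1.78-fold higher with Senexin B (0.84) and 1.25-fold higher in shCDK8 (0.33), and the controls were 0.20 apart. Dusp5, a nuclear phosphatase specific for ERK and an ERK-induced gene, stood at 8.20 in DMSO, 7.21 in Senexin B, 8.34 in pLKO.1 and 8.96 in shCDK8. The inhibitor array was the lowest and the hairpin array the highest for Dusp5, with the controls between them and 0.14 apart. It was 1.98-fold lower with Senexin B (-0.99), rank 38 from the lowest, and 1.53-fold higher in shCDK8 (0.62), rank 204 from the highest. Dusp6, the cytoplasmic ERK phosphatase used as a readout of ERK activity, was at 10.54 in DMSO, 10.39 in Senexin B, 10.76 in pLKO.1 and 10.41 in shCDK8. Its differences were -0.16 and -0.35, and its other probe set lay under the limit on all 4 arrays. Dusp4 was at -0.080 with Senexin B and 0.28 in shCDK8, and Dusp7 at -0.27 and -0.054.

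Among the inhibitors upstream of ERK, Spry2, a Sprouty protein induced by receptor tyrosine kinases, had the same order of arrays as Dusp5. It stood at 8.34 in DMSO, 7.76 in Senexin B, 8.46 in pLKO.1 and 9.26 in shCDK8. That is just over 1.5-fold lower with Senexin B (-0.59) and 1.75-fold higher in shCDK8 (0.81), rank 80 from the highest of 14272. Spry4 was at -0.27 and -0.15, and Spry1 at 0.20 and -0.27. Spred3 stood at 8.06 in DMSO, 7.84 in Senexin B, 8.37 in pLKO.1 and 8.60 in shCDK8, again lowest with the inhibitor and highest with the hairpin, but the controls were 0.31 apart and neither difference reached 1.5-fold. Senexin B was also lowest and shCDK8 highest for Fosb, Junb, Atf3, Nr4a1 and Dusp4, none of them called. The share of all expressed genes with that order was not counted. Spred1 and Spred2 differed by less than 0.2 in both comparisons. Of the 6 genes of this role 5 lay below 0 with Senexin B and 3 in shCDK8, beside 55.1% and 49.1% of all expressed genes.

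In the PEA3 group no member was called, which for 3 genes is near the share over all expressed genes. Etv4 was at 8.70 in DMSO, 8.49 in Senexin B, 8.72 in pLKO.1 and 8.71 in shCDK8, and Etv5 differed by 0.036 with Senexin B and 0.21 in shCDK8. Etv1 was at 9.95 in DMSO, 10.30 in Senexin B, 10.28 in pLKO.1 and 9.94 in shCDK8. For Etv1 the Senexin B and pLKO.1 arrays were equally high, so the difference of 0.35 against DMSO was 0.020 against pLKO.1, and the controls were 0.33 apart. The other probe set of Etv1 gave 0.58 with Senexin B, just under 1.5-fold, and that of Etv5 gave -0.11 in shCDK8, the opposite sign to the one kept.

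**Figure D2:**
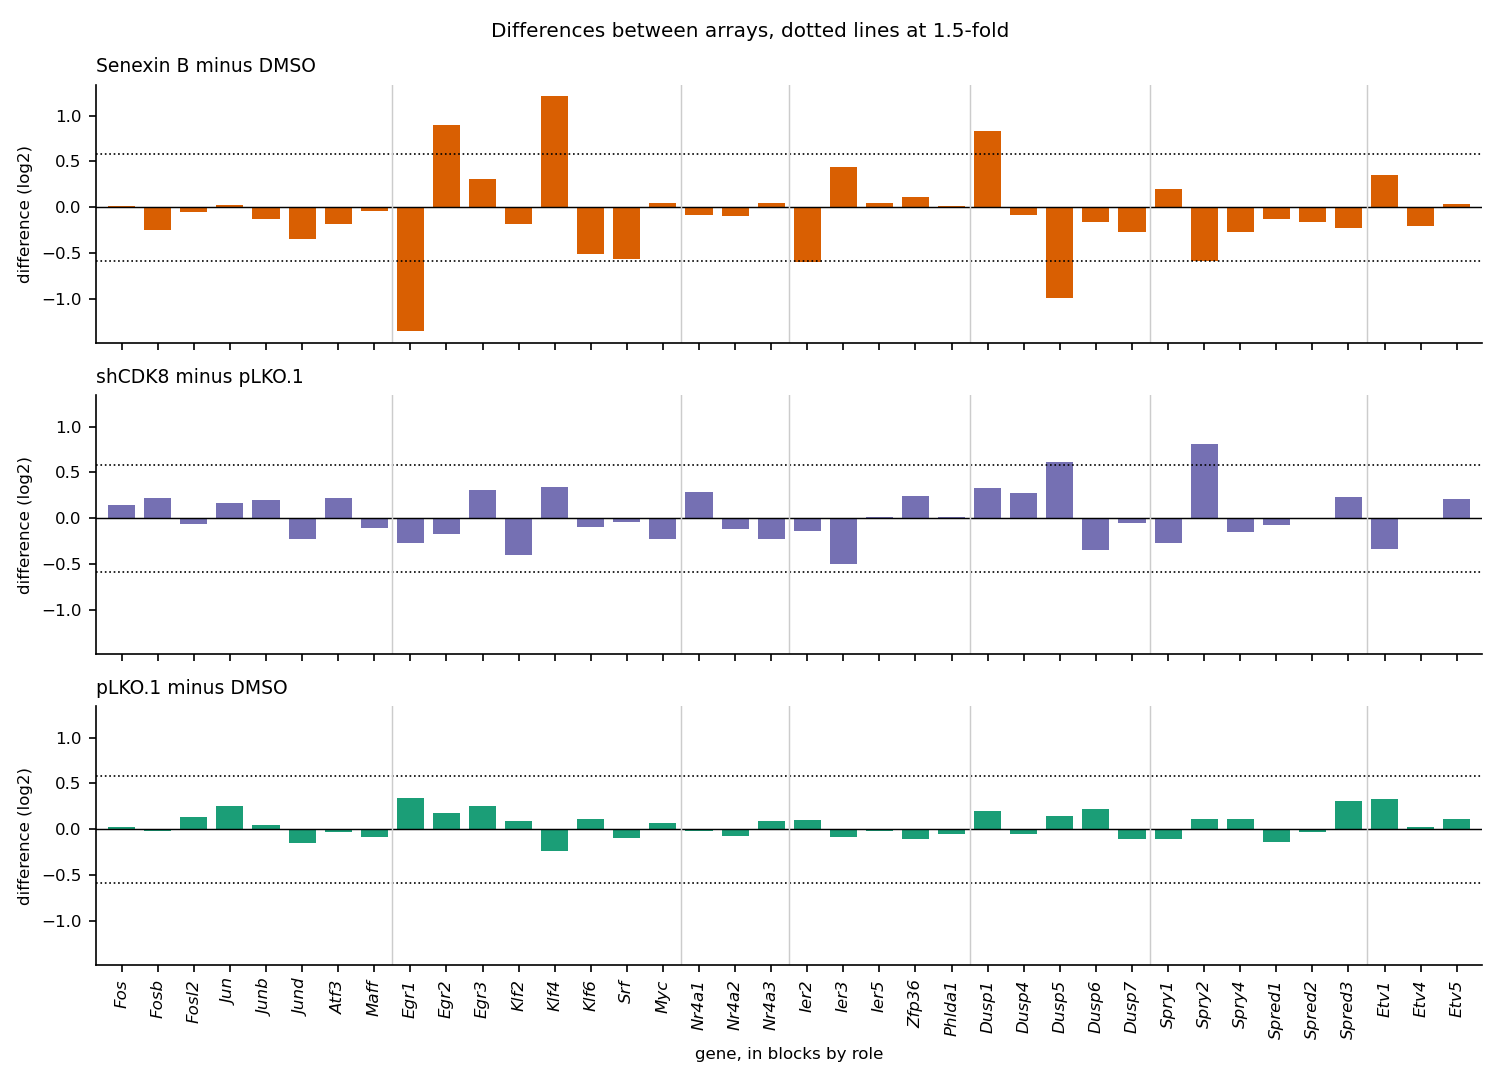
Log2 differences (y axis) of the 38 measured members (x axis, in blocks by role), 1 bar per gene, for Senexin B minus DMSO, shCDK8 minus pLKO.1 and pLKO.1 minus DMSO, with dotted lines at 1.5-fold (0.585). Bars pass the lines for 7 members in the top panel, for Dusp5 and Spry2 in the middle panel and for none between the controls.

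In shCDK8 set against pLKO.1, Spry2 and Dusp5 were the members at least 1.5-fold higher, 2 of 37 (5.41%), beside 1.67% of all expressed genes. None was 1.5-fold lower, beside 1.85% of all expressed genes, and the lowest were Ier3 (-0.50) and Klf2 (-0.40). The median member was at -0.013, beside 0.0038 for all expressed genes, and 51.4% of members lay below 0, beside 49.1%. Against the DMSO array Spry2 was 0.92 and Dusp5 0.76 higher. Between the controls, pLKO.1 minus DMSO, no member was 1.5-fold apart, beside 0.603% of expressed genes higher and 0.434% lower. The members ranged there from -0.24 (Klf4) to 0.34 (Egr1), with an SD over the 37 genes of 0.15, beside 0.47 in the inhibitor comparison and 0.28 in the hairpin comparison. Over all expressed genes the SD was 0.19 between the controls, 0.29 in the inhibitor comparison and 0.26 in the hairpin comparison. The control difference shares an array with each comparison.

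The inhibitor and hairpin comparisons have no array in common. Of the 37 members 23 had the same sign in both and 14 had opposite signs (37.8%), beside 47.3% opposite among all expressed genes. No member was called the same way in both comparisons, and Dusp5 and Spry2 were called in opposite ways, lower with Senexin B and higher in shCDK8. Of 14272 expressed genes 39 were called the same way in both comparisons, 18 were lower with Senexin B and higher in shCDK8, and 41 were the reverse, so none of 37 called the same way is near the background. Egr1 was below 0 in both, at -1.35 and -0.27, but 0.075 above DMSO in shCDK8. Klf4 and Dusp1 were above 0 in both, and also against the other control array, at 0.099 for Klf4 and 0.53 for Dusp1 in shCDK8 minus DMSO.

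**Figure D3:**
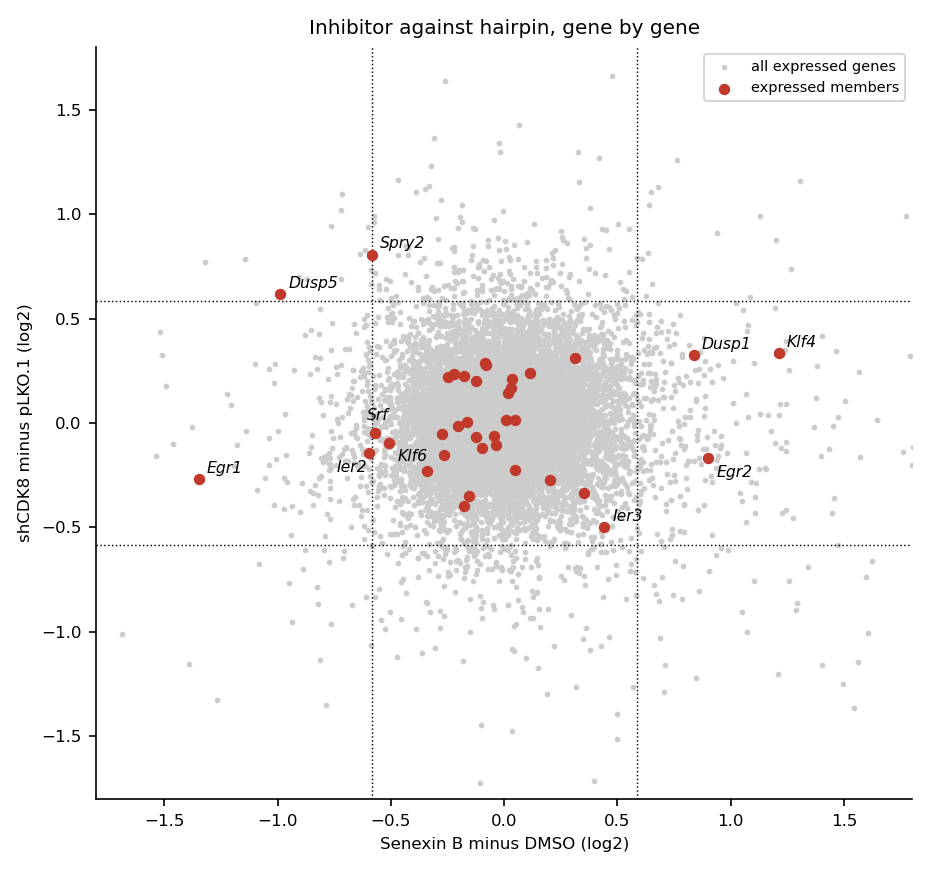
Senexin B minus DMSO (x axis, log2) against shCDK8 minus pLKO.1 (y axis, log2) for all expressed genes (grey) and the 37 expressed members (red), with dotted lines at 1.5-fold and genes beyond the axes not drawn. Dusp5 and Spry2 lie at the upper left, while Egr1, Klf4, Egr2 and Dusp1 spread along the x axis.

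Companion lists gave the setting of these members, by the same limit and threshold, and were drawn up with earlier results of these data known. Their counts stand beside 2.35% of all expressed genes higher and 1.65% lower with Senexin B, and 1.67% and 1.85% in shCDK8. Among the ERK pathway components (receptors, adaptors, RAS, RAF and their regulators) 23 of 33 listed were measured and expressed. With Senexin B 1 was higher, Fgfr1, a fibroblast growth factor receptor (0.88), and 1 lower, Rasgrp3, an exchange factor that activates RAS (-1.14). Rasgrp3 stood at 7.33 in DMSO, 6.18 in Senexin B, 7.75 in pLKO.1 and 8.54 in shCDK8. It thus had the array order of Dusp5 and Spry2, though its controls were 0.43 apart, and in shCDK8 it was the gene called, at 0.78. Elk3, Ccn1 and Fst, on other lists, had that order too. The median of the ERK pathway list was -0.10 in the inhibitor comparison and 0.030 in the hairpin comparison. The receptor gene Met (-0.53) and Rasa1, a GTPase-activating protein for RAS (-0.52), were next with Senexin B.

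Of 11 expressed ETS, SRF and CREB factors Cebpb (0.81) and Ets2 (0.75) were higher with Senexin B and none was lower. In shCDK8 Elk1, the ternary complex factor, was lower, at 8.79 in pLKO.1 and 8.14 in shCDK8 (-0.65), and none was higher. Mrtfa, an actin-regulated SRF coactivator, was at -0.40 and -0.28. Of 15 expressed SRF/MRTF cytoskeletal genes none reached 1.5-fold with Senexin B, where Acta2, smooth muscle actin, was at 0.55 and Vcl, vinculin, at -0.50. In shCDK8 Acta2 alone was called, at 0.93. Of 15 expressed MYC targets none reached 1.5-fold in either comparison. With Senexin B 14 lay below 0 (93.3%, beside 55.1% of all expressed genes), with a median of -0.18, Tfrc at -0.45 and Ddx21 at -0.44. The median over all expressed genes was -0.028 there, and -0.070 over genes reaching the 60th percentile. In shCDK8 the median of the MYC targets was -0.082, and -0.046 between the controls.

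Other immediate-early and early response genes, 39 of them expressed, had 2 higher and 3 lower with Senexin B and a median of -0.026. Rgs2, a regulator of G-protein signalling, was the highest, at 5.48 in DMSO and 7.10 in Senexin B, and since its DMSO value lay under the limit the size of that difference is uncertain. Ifrd1 (-0.65), Plk3 (-0.65) and Gadd45b (-0.61) were the 3 lower genes. In shCDK8 the matricellular gene Ccn2 (-0.74) was lower and the antiproliferative gene Btg2 (0.61) higher. Rgs2 was also counted as lower there (-0.66), but at 5.69 in pLKO.1 and 5.03 in shCDK8 it lay under the limit on both arrays.

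The list of other ERK and AP-1 dependent genes, 20 expressed, holds the metalloproteinase genes Mmp3, Mmp9, Mmp10 and Mmp13 and the inhibitor gene Timp1, whose values here were known when it was drawn up, so its count is no independent evidence of a direction. With Senexin B 7 were lower and 1 higher, with a median of -0.31, and in shCDK8 5 were lower and 2 higher, with a median of -0.033. The 5 lower in shCDK8 were these metalloproteinase and inhibitor genes, all of which were also lower with Senexin B, where Hbegf and Tgfa made up the 7. The gene called higher with Senexin B was Vegfa (0.86), and those called higher in shCDK8 were Fst and Plau (0.67). The controls were 0.70 apart for Mmp3, itself past 1.5-fold, beside a Senexin B difference of -0.74, and 0.47 apart for Mmp13. Mmp9 with Senexin B was just inside the threshold, at -0.59, and at -0.38 against pLKO.1. The EGF receptor ligand Hbegf stood at 10.10 in DMSO, 9.13 in Senexin B, 10.28 in pLKO.1 and 10.02 in shCDK8. Another such ligand, Tgfa, stood at 8.29 in DMSO, 7.23 in Senexin B, 7.81 in pLKO.1 and 7.55 in shCDK8. Both ligands were lowest with Senexin B, but for Tgfa the controls were 0.48 apart, and against pLKO.1 its difference was -0.58. The EGF receptor ligand Ereg, on the same list, went the other way. It stood at 11.10 in DMSO, 11.54 in Senexin B, 11.30 in pLKO.1 and 11.41 in shCDK8. That is highest with Senexin B by 0.44 over DMSO, under 1.5-fold. The stromelysin gene Mmp10 was at -2.17 and -1.18 and the collagenase gene Mmp13 at -1.52 and -3.17, lower in both comparisons. The part of AP-1 in these differences was not tested. Fst, whose product follistatin binds activin, was at -0.31 with Senexin B and 1.37 in shCDK8.

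**Figure D4:**
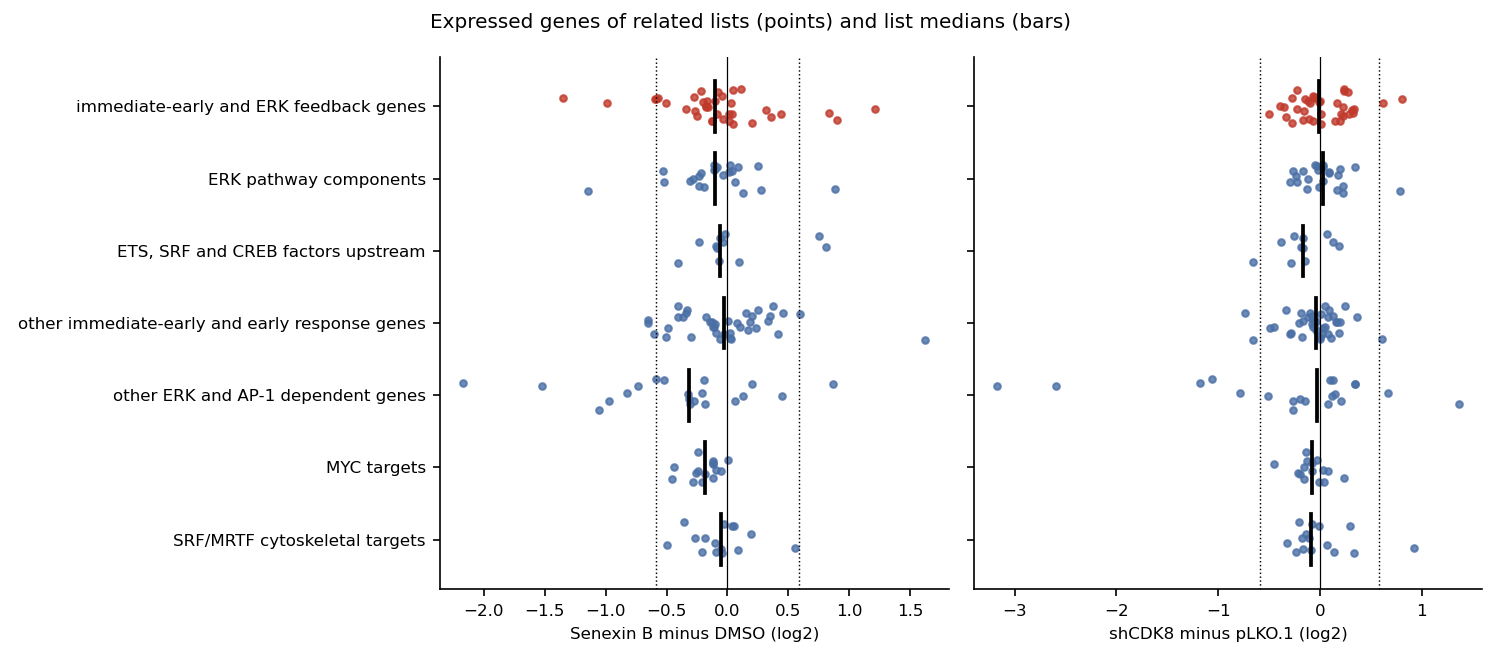
Log2 differences (x axis) of the expressed genes (points, spread vertically for legibility) of the members and of 6 companion lists (y axis) for Senexin B minus DMSO, left, and shCDK8 minus pLKO.1, right, with the list median as a black bar and dotted lines at 1.5-fold. The list of other ERK and AP-1 dependent genes has the lowest median on the left, -0.31, and the lowest single genes on both sides.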

How the data were processed

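The authors deposited log2 values for each probe set, made with RMA and Affymetrix Expression Console, per the submitters' processing notes. Software versions and the set of arrays normalized jointly are not stated in those notes. RMA forces arrays to 1 distribution, so a shift of every gene cannot be seen, and differences near background come out too small. The number of arrays limits the precision.

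Of 41345 probe sets 23521 had 1 symbol in the platform annotation, 1814 several and 16010 none. Only those with 1 symbol were named, and per gene the one with the highest mean was kept. Dusp6, Etv1, Etv5 and Jund each had a second probe set. The members, their roles, the 6 companion lists, the threshold and the rule for named genes (all members, and up to 4 expressed genes per companion list and comparison with the largest absolute difference) were chosen with earlier results of these data known. Ereg, Mmp9, Plau, Timp1 and Vegfa were named outside that rule. Older symbols in the lists were updated through RefSeq synonyms. Differences were taken in pandas 2.3.3 on Python 3.11.15, a lowess trend (span 0.3) in statsmodels 0.14.6. The counting was tested on simulated data. Promoter windows came from RefSeq for GRCm38.p6. The build behind the array design is not given in the sources used.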

Additional observations from a re-analysis of the deposited data

How the results depend on the processing

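The member medians and the counts of members at least 1.5-fold apart were recomputed in the inhibitor, the hairpin and the control comparison. The alternatives were the removal of a lowess trend, quantile normalization run again, no filter on low values, a filter on the mean level or at the 60th percentile, averaging over probe sets, values under the limit raised to it and, for the inhibitor and hairpin, the other control array. Of 69 recomputed medians and counts 67 moved by less than 0.1 on the log2 scale or stayed within a factor of 1.5. The others were the count of members lower with Senexin B, which was 2 in place of 4 under the repeated quantile normalization and 2 under the lowess trend, where Ier2 was at -0.58 and -0.57 and Spry2 at -0.54 and -0.52. The bound of 0.1 is about as large as the medians it judges, so it says little about them. The Senexin B median went from -0.10 to -0.042 under the lowess trend and still counted as unmoved. So did the shCDK8 median, which went from -0.013 to 0.014 under the other control array. Counts of 0 that stayed at 0 are among the 67. Of 72 recomputed differences of the called members, 8 moved by at least 0.1, each under the other control array, and none changed sign. Under that array Ier2 with Senexin B alone moved by less. The filters, averaging over probe sets and raising low values could not change these differences. Each called member has 1 probe set and lies above the limit on all 4 arrays, so the sameness there is no sign of robustness. Against pLKO.1, Egr1 was at -1.69, Dusp5 at -1.13 and Klf4 at 1.45. No paired analysis was possible because each group had 1 array. For the same reason no array could be left out, and the spread between cultures is unknown. Fos, Maff and Spry1, with highest values of 6.47, 7.04 and 7.11, lay nearest to the expression limit among the expressed members, where differences are compressed.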
